A study of Mus musculus with 9 samples.

Results

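Genes known from hepatic stellate cells, 10 in number, were followed through 9 mouse RNA-seq libraries: Lrat, Reln, Ecm1, Hgf, Hand2, Rgs5, Abcc9, Des, Pdgfra and Pdgfrb. They were taken by symbol from the 16231 genes of the deposited count table, and all 10 of 10 were present and passed the filter on low counts. The libraries are labelled as retina and fall into 3 groups of 3: young mice, aged mice, and aged mice given the green tea catechin epigallocatechin gallate (EGCG). The labels name no genetic change in any group, and the sources used here give no ages, dose, route, duration or strain. Nothing in the labels ties each library to its own animal, so the p-values reflect library-to-library spread, which may be technical.

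Stellate cells lie between hepatocytes and the sinusoidal endothelium of the liver and hold most of the body's vitamin A as retinyl esters. At rest they store retinoid and secrete growth factors and matrix regulators. On injury they lose their droplets and become contractile, collagen-secreting myofibroblasts. Several of the 10 genes also have known roles in the eye, where Lrat feeds the visual cycle of the pigment epithelium, Pdgfra marks retinal astrocytes and Reln is made by amacrine cells.

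The tissue label was checked against marker genes, because it decides which cells the 10 genes can be read in. Alb, the serum albumin gene of hepatocytes, averaged 84792 CPM in the young libraries (CPM, library-size-scaled counts). Of 14 listed markers of photoreceptors and inner retinal neurons 8 were in the table, and 5 of these stayed under 1 CPM in every library. The rod gene Sag had 15 counts in the 9 libraries combined, the phototransduction genes Pde6b and Cnga1 had 1 each. The 3 neuronal markers that passed the filter were Gnat1 (29.2 ± 2.6 CPM in young, 10.04 ± 0.33 in aged and 4.74 ± 0.71 in treated libraries), Rbpms (37.0 ± 1.0, 38.3 ± 1.8 and 38.8 ± 2.3) and Slc6a9 (49.2 ± 3.0, 26.9 ± 0.31 and 34.6 ± 0.67). Of 10 glial markers 8 were in the table (all but Rlbp1 and Sox2) and 5 passed the filter. The highest were Glul (1349.9 ± 11 CPM in young libraries), Vim (11.5 ± 1.4) and Aqp4 (6.98 ± 0.18). Vim is also listed below as a gene of activated stellate cells. Pax2 had 1 count in all and Gfap and Slc1a3 had 43 each. Not all of these genes are specific to glia, so their levels do not show that glia are present. Of 10 pigment epithelium markers 6 were in the table and 4 passed, led by Ttr (4428 ± 124 CPM in young libraries), which is also on the hepatocyte list, Rdh5 (16.4 ± 0.64) and Mitf (4.04 ± 0.071), while Best1 had 4 counts in all. The retinal lists were thus mixed, with some genes near 0 and others measured, and the hepatocyte genes had the highest summed level of the lists. Library totals ran from 34240500 to 39922044 counts, at a common biological coefficient of variation of 5.37%.

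Stretches of promoter are shown for 4 members because the groups set them apart: Reln and Lrat, which differed in how far they lay from the young level after EGCG, Ecm1, the most abundant, and Hand2, which was not called in any comparison. Each line gives the 250 bases before a transcription start annotated by RefSeq (GRCm38.p6), 5′ to 3′ on the gene's strand. Capitals mark matches on either strand to an AP-1 motif (TGANTCA), a TEAD motif (GGAATG), an E-box (CACGTG) or a GC box (GGGCGG), and no 2 of the marked matches overlap. The positions are chr5:22344706-22344955, minus strand for Reln, chr3:82903975-82904224, minus strand for Lrat, chr3:95739570-95739819, minus strand for Ecm1 and chr8:57320733-57320982, plus strand for Hand2.
Reln: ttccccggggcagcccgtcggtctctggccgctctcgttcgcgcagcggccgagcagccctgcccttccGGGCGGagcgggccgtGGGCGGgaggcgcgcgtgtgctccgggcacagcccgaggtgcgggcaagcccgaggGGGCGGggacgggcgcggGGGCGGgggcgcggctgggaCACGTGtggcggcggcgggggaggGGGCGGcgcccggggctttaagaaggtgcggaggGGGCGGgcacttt
Lrat: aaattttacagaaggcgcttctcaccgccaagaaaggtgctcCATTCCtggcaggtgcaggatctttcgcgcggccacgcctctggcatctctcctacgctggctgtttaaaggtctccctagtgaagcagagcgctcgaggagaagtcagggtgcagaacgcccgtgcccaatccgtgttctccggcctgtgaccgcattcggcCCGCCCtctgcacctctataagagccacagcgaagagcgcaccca
Ecm1: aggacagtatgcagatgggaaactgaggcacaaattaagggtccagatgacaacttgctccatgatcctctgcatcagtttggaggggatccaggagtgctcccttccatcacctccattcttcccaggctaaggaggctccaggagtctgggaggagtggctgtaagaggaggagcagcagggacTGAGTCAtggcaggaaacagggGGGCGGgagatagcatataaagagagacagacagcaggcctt
Hand2: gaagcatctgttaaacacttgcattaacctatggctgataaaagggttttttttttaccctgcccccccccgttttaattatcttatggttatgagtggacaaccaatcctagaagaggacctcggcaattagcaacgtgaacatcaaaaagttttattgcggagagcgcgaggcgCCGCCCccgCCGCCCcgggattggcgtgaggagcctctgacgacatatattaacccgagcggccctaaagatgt

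A RefSeq window was found for 9 of the 10 genes (10 windows, since Hgf had 2). The AP-1 letters stood in 1 of the 10 member windows, that of Ecm1, beginning 64 bases before the start. They stand in 6.75% of all 32851 windows of this length. The TEAD letters stood in 2 member windows, those of Lrat (208 bases before the start) and Abcc9, against 12.6% of all windows. The E-box stood in the Reln window (71 bases before the start), against 6.02% of all windows. GC boxes stood in 6 of the 10 member windows, with 6 of them in the Reln window, whose GC content was 80.0%, against 32.7% of all windows. Neither Hgf window held any of the 4 motifs. These matches are descriptions of letters in a short window.

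The first comparison, aged against young, asked what changes with age. Of the 10 genes, 9 rose and 0 fell by edgeR's quasi-likelihood test (adjusted p under 0.05), with a median log2 fold change of 1.54. Over all 12747 genes tested, 69.5% were called, 33.4% higher and 36.1% lower, and the median was -0.01. The 9 genes ranged from Des, up by 0.94, to Hgf, up by 2.36 on the log2 scale. Their aged and young libraries did not overlap in CPM, an arrangement in the higher direction seen in 34.5% of all tested genes. Hand2 was the exception in both respects. In bulk tissue, a change in the number of cells of a type and a change in RNA per cell cannot be told apart.

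EGCG-treated aged libraries were then compared with untreated aged ones. Of the 10 genes, 8 fell and 0 rose, with a median of -0.94, while 63.3% of all tested genes were called, 31.5% lower and 31.8% higher, and their median was 0.01. The falls ranged from -0.51 for Ecm1 to -2.45 for Hgf, and Des and Hand2 were not called. The 8 genes that fell did not overlap between the groups, as was the case in the lower direction for 33.3% of all tested genes. This comparison shares the aged libraries with the comparison by age.

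Compared with young libraries, the EGCG-treated ones were higher for 6 of the 10 genes and lower for 0 (median 0.55), against 62.9% of all tested genes called, 30.8% higher and 32.1% lower, and a median of 0.02. Lrat, Pdgfrb, Abcc9, Ecm1 and Rgs5 did so without overlap, which 32.1% of all tested genes showed in the higher direction. Des passed the test with overlapping libraries. Reln, Hgf, Pdgfra and Hand2 were not called.

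**Figure D1:**
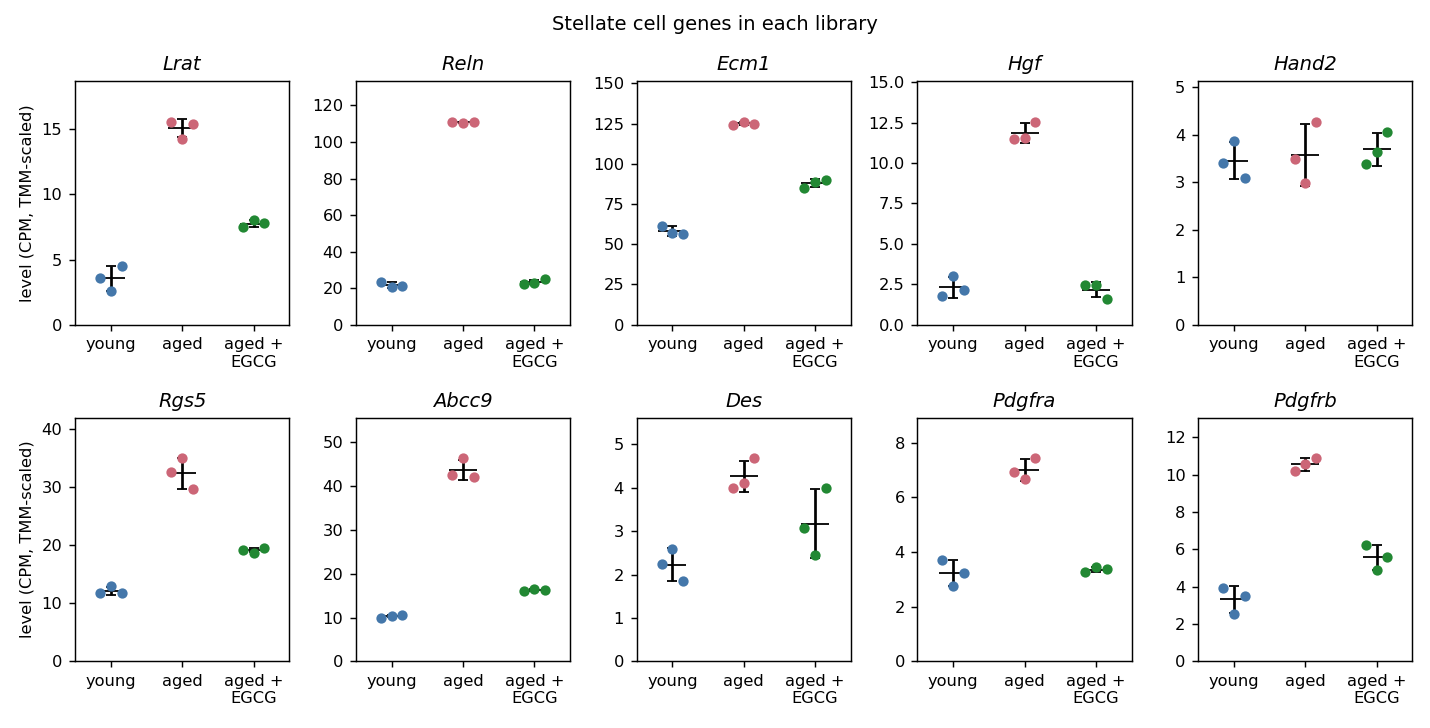
Level of each of the 10 genes (CPM after TMM scaling, axis from 0) in the 3 young, 3 aged and 3 EGCG-treated aged libraries; points are libraries, horizontal marks the mean and bars the SD. In 9 panels the aged libraries lie above the young ones, and in the Hand2 panel the groups overlap.

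Lrat (lecithin retinol acyltransferase) makes the retinyl esters that stellate cells store, and its gene lies at chr3:82892579-82903973 on the minus strand of GRCm38 (GENCODE M21). It stood at 3.59, 2.60 and 4.48 CPM in the young libraries, at 15.6, 14.3 and 15.4 in the aged ones and at 7.52, 8.0 and 7.78 in the treated ones. The 3 groups formed separate steps, with the treated libraries between the others. The change was 2.08 (SE 0.13, adjusted p = 3.3e-18) with age and -0.96 (SE 0.12, adjusted p = 1.9e-09) with EGCG, and treated libraries stayed above young ones by 1.13 (adjusted p = 1.2e-09). An antisense gene, Rbm46os, spans all 11395 bases of Lrat, and the sources used here do not state whether counting used strand, so reads of the pair cannot be told apart.

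Reln encodes reelin, a large secreted glycoprotein known from neuronal layering and used as a marker of quiescent stellate cells (chr5:21884454-22344702, minus strand). The annotated antisense gene Gm10475 overlaps 43084 of its bases. Its libraries read 23.4, 20.5 and 21.0 CPM in the young group, 111, 110 and 111 in the aged group and 22.5, 22.7 and 24.9 in the treated group. The aged libraries stood about 5-fold above both others (5.11-fold above young, 4.74-fold above treated), while treated and young libraries overlapped. The changes were 2.35 (SE 0.054, adjusted p = 4.3e-34) with age and -2.24 (SE 0.053, adjusted p = 2.5e-33) with EGCG. Between treated and young libraries the difference was 0.11 (95% interval -0.005 to 0.23, adjusted p = 0.099). That last value passed the test with upper-quartile factors (0.28), on FPKM scales (0.19 to 0.28) and without young replicate 1 (0.17).

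Ecm1 (extracellular matrix protein 1), a secreted protein known to keep latent TGF-beta inactive and made by hepatocytes as well as stellate cells, was the most abundant member (chr3:95734147-95739569, minus strand). It read 61.6, 57.0 and 56.3 CPM in the young libraries, 124, 126 and 125 in the aged ones and 85.1, 88.7 and 89.9 in the treated ones. The 3 groups did not overlap and the spread within each was small. The changes were 1.10 (SE 0.040) with age, -0.51 (SE 0.039) with EGCG and 0.59 (SE 0.041) between treated and young libraries, with adjusted p of 2.2e-26, 3.6e-15 and 1.1e-16. Its fall with EGCG was the smallest of the 8.

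Hgf encodes hepatocyte growth factor, the ligand of the receptor MET, which non-parenchymal liver cells supply to hepatocytes (chr5:16553495-16620152, plus strand). The young libraries stood at 1.76, 3.03 and 2.12 CPM, from 55 to 98 counts each. In the aged libraries it stood at 11.5, 11.5 and 12.6 CPM, and in the treated ones at 2.45, 2.44 and 1.61. Treated and young libraries thus overlapped, far under the aged ones. The gene rose by 2.36 (SE 0.17, adjusted p = 2.0e-16) with age and fell by 2.45 (SE 0.17, adjusted p = 6.9e-17) with EGCG. The difference between treated and young libraries was -0.09 (95% interval -0.46 to 0.29), and its sign turned under 6 of the 17 alternatives.

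Hand2, a basic helix-loop-helix transcription factor of the stellate lineage (chr8:57320983-57324633, plus strand), stood at 3.4, 3.86 and 3.09 CPM in young, 3.48, 2.98 and 4.27 in aged and 3.38, 3.64 and 4.06 in treated libraries. The groups overlapped throughout. Its changes were 0.06 (95% interval -0.31 to 0.42) with age, 0.04 (-0.32 to 0.41) with EGCG and 0.10 (-0.27 to 0.47) between treated and young libraries. Without young replicate 3 or without aged replicate 3 the change with age was -0.02 or -0.09, and without aged replicate 2 or treated replicate 3 that with EGCG was -0.07 or -0.03. The non-coding gene Hand2os1 overlaps 3251 bases of it on the opposite strand, and reads of the pair cannot be told apart.

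Rgs5, a regulator of G protein signalling found in quiescent stellate cells and pericytes (chr1:169655501-169695813, plus strand), read 11.7, 12.9 and 11.8 CPM in young, 32.6, 34.9 and 29.6 in aged and 19.2, 18.7 and 19.4 in treated libraries. The 3 groups did not overlap, with the treated libraries in the middle. The change was 1.41 (SE 0.076, adjusted p = 2.7e-20) with age and -0.76 (SE 0.072, adjusted p = 2.7e-12) with EGCG. The treated libraries remained 0.66 above the young ones (adjusted p = 1.3e-09).

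Abcc9 encodes the sulfonylurea receptor SUR2, the regulatory subunit of the ATP-sensitive potassium channel of mural cells (chr6:142587862-142702315, minus strand). The antisense gene 5330439B14Rik overlaps 11868 of its bases. It stood at 9.997, 10.4 and 10.5 CPM in young, 42.6, 46.3 and 42.1 in aged and 16, 16.5 and 16.3 in treated libraries. Again the groups were separate, and the treated ones lay nearer to the young than to the aged. The gene rose by 2.08 (SE 0.072, adjusted p = 2.0e-27) with age, fell by 1.42 (SE 0.067, adjusted p = 2.9e-22) with EGCG and stayed 0.66 above young (adjusted p = 4.7e-10).

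Des encodes desmin, an intermediate filament protein of muscle that also marks rodent stellate cells (chr1:75360329-75368579, plus strand). Its values were 2.24, 2.60 and 1.85 CPM in young, 4.0, 4.12 and 4.68 in aged and 3.08, 2.44 and 4.0 in treated libraries. Young and aged libraries were separate, but the treated ones were spread widely and overlapped both. The rise with age was 0.94 (SE 0.21, adjusted p = 0.00012). The value with EGCG was -0.43 (95% interval -0.82 to -0.04, adjusted p = 0.058), which passed without treated replicate 3 (-0.63), in a fit of the 2 compared groups (-0.43) and, with the filter, on log2(FPKM + 1) (-0.26) and log2(FPKM + 0.1) (-0.43). The difference of 0.51 between treated and young libraries (adjusted p = 0.035) was lost in a fit of the 2 compared groups (0.51), without young replicate 1 (0.51) or 3 (0.39), and without treated replicate 1 (0.53) or 3 (0.31).

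Pdgfra and Pdgfrb encode the receptor tyrosine kinases for platelet-derived growth factors, of which the beta receptor is known to rise when stellate cells activate. Pdgfra (chr5:75152292-75198215, plus strand) stood at 3.72, 2.75 and 3.24 CPM in young, 6.92, 6.67 and 7.43 in aged and 3.27, 3.45 and 3.36 in treated libraries. Treated and young libraries overlapped under the aged ones. It rose by 1.12 (SE 0.16, adjusted p = 5.6e-08) with age and fell by 1.06 (SE 0.16, adjusted p = 1.5e-07) with EGCG, and treated and young libraries differed by 0.06 (95% interval -0.27 to 0.39), or by -0.05 without young replicate 2. Pdgfrb stood at 3.94, 2.53 and 3.51 CPM in young, 10.2, 10.6 and 10.9 in aged and 6.21, 4.91 and 5.59 in treated libraries. Here all 3 groups were separate. Its changes were 1.66 (SE 0.14, adjusted p = 9.6e-14) with age, -0.92 (SE 0.13, adjusted p = 9.2e-08) with EGCG and 0.74 (SE 0.15, adjusted p = 3.5e-05) between treated and young libraries.

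**Figure D2:**
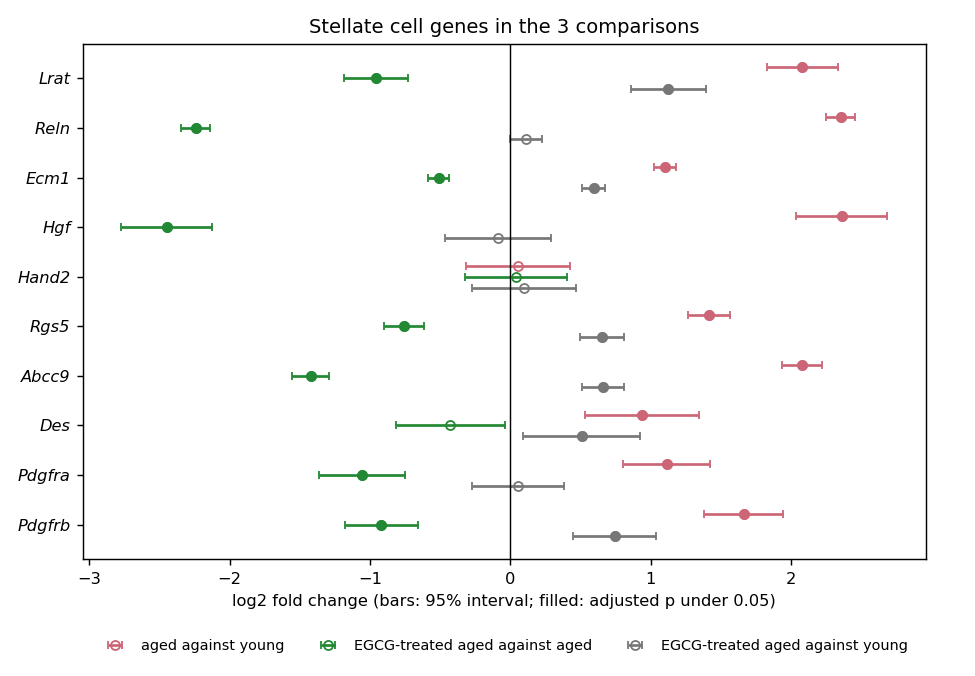
Log2 fold changes of the 10 genes in the 3 comparisons (horizontal axis), with 95% intervals; filled symbols passed an adjusted p of 0.05. The changes with age lie right of 0 and those with EGCG left of 0 except for Hand2, and the treated against young values run from -0.09 for Hgf to 1.13 for Lrat.

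The treated libraries kept different shares of the age difference from gene to gene. On the CPM scale, the treated mean of Ecm1 lay 44.3% of the way from the young to the aged mean (40.1 to 47.3% over the 3 treated libraries). The share was 36.6% for Lrat (34.4 to 38.6%), 34.5% for Rgs5 (32.5 to 36.1%), 31.1% for Pdgfrb (21.9 to 40.0%) and 17.9% for Abcc9 (17.1 to 18.5%). For Pdgfra, Reln and Hgf it was 3.30%, 1.93% and -1.41%. Des had a share of 46.5%, but single libraries ran from 10.5 to 87.1%. Shares near 0 and larger ones both occurred among genes known for quiescence and among those known for the mesenchymal lineage. A share near 0 does not show equality with the young libraries. Reln, for example, was called higher than young in 5 of the 17 alternatives. These shares describe group means and were not tested against each other.

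Count ratios of member pairs within a library need no scaling between libraries. The pairs were chosen after the values had been seen and are given without a test. The ratio of Reln to Lrat counts was 4.69 to 7.92 in the young, 7.11 to 7.72 in the aged and 2.84 to 3.20 in the treated libraries. The treated libraries thus lay under both other groups, which overlapped. Hgf to Lrat ran from 0.473 to 1.17, from 0.738 to 0.816 and from 0.207 to 0.326 in the same order, again with the treated libraries lowest. Pdgfrb to Pdgfra was 0.921 to 1.08 in young libraries, 1.46 to 1.58 in aged ones and 1.43 to 1.90 in treated ones, so that here the young libraries stood apart and the other groups overlapped. Reln to Pdgfrb was 5.94 to 8.11, 10.2 to 10.9 and 3.62 to 4.63, with all 3 groups apart. Reln to Hgf was 6.79 to 13.3, 8.85 to 9.63 and 9.18 to 15.4, and here the groups overlapped. Lrat to Pdgfrb was 0.911 to 1.28, 1.35 to 1.53 and 1.21 to 1.63, with treated libraries overlapping both others.

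**Figure D3:**
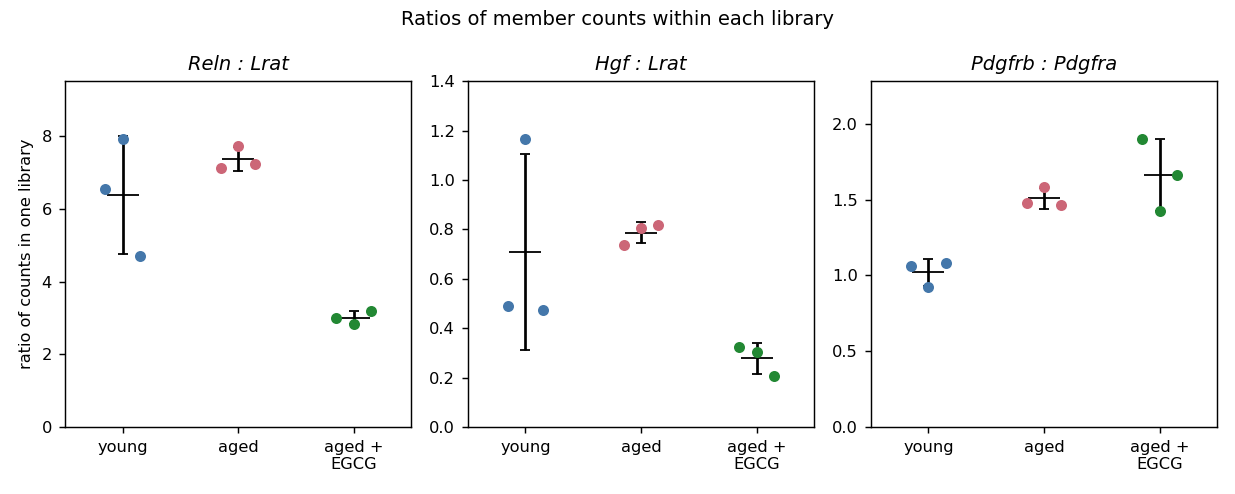
Ratios of the counts of member pairs within each library (vertical axis, from 0) by group; points are libraries, marks are means and bars SD. Reln to Lrat and Hgf to Lrat are lowest in the 3 treated libraries, and Pdgfrb to Pdgfra is lowest in the 3 young ones.

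Levels of different genes were compared per gene length, in the deposited FPKM. In the aged libraries the order was Ecm1 (71.5 ± 0.67, SD, n = 3), Reln (9.96 ± 0.060), Rgs5 (7.49 ± 0.61), Abcc9 (5.70 ± 0.30), Hgf (4.35 ± 0.23), Lrat (2.97 ± 0.14), Pdgfrb (1.82 ± 0.064), Hand2 (1.69 ± 0.31), Des (1.46 ± 0.13) and Pdgfra (0.897 ± 0.052). Neighbours in this order did not overlap except Pdgfrb with Hand2 and Hand2 with Des. In the young libraries Ecm1 (29.0 ± 1.3 FPKM) led Rgs5 (2.44 ± 0.14), Reln (1.70 ± 0.11), Hand2 (1.41 ± 0.16) and Abcc9 (1.17 ± 0.038). The remaining 5 ran from Hgf (0.736 ± 0.21) to Pdgfra (0.361 ± 0.053), each overlapping its neighbour. In the treated libraries Ecm1 (49.5 ± 1.0 FPKM) was followed by Rgs5 (4.36 ± 0.075) and then by Abcc9 (2.10 ± 0.029) and Reln (2.07 ± 0.098), which overlapped. Hgf moved from the fifth place in the aged libraries to the ninth in the treated ones (0.786 ± 0.18 FPKM). By level in the aged libraries, Ecm1 was number 815 of the 16231 genes and Pdgfra number 9606.

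Other genes known from quiescent stellate cells moved with the members. Of 20 listed genes 19 were tested, and 19 rose and 0 fell with age (median 1.46), where 33.4% of all tested genes were called higher. With EGCG 13 fell and 0 rose (median -0.94), against 31.5% called lower over all tested genes. Between treated and young libraries 10 were higher and 0 lower (median 0.31), against 30.8% called higher. Colec10 and Colec11, collectins of the complement lectin pathway, rose from 8.22 ± 0.49 to 31.6 ± 1.8 CPM and from 12.5 ± 0.96 to 29.7 ± 1.4 CPM, and fell to 10.99 ± 0.68 and 15.4 ± 0.63 CPM with EGCG. Sod3, the extracellular superoxide dismutase, went from 13.7 ± 2.0 to 30.8 ± 0.73 and to 18.4 ± 0.58 CPM. Gfap, a glial filament that rodent stellate cells can hold, was not tested at its 43 counts.

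Transcription factors of that list were looked at after their values had been seen, because Hand2 is one. Lhx2, a repressor of stellate activation, rose with age from 0.991 ± 0.18 to 2.91 ± 0.44 CPM and stood at 2.65 ± 0.33 with EGCG (log2 change -0.14, adjusted p = 0.62). Tcf21 went from 1.10 ± 0.26 to 3.58 ± 0.19 and stood at 3.28 ± 0.35 CPM (-0.12, adjusted p = 0.62), and Pparg, the lipid-regulating nuclear receptor, from 7.91 ± 0.79 to 14.7 ± 0.94 and stood at 13.5 ± 0.80 CPM (-0.12, adjusted p = 0.25). Gata4 changed by 0.30 with age and by -0.11 with EGCG (adjusted p = 0.28), and hepatocytes and endothelium also hold it. All 4 rose with age and 0 of the 4 were called with EGCG. Over all tested genes, 33.4% were called higher with age and 63.3% were called in either direction with EGCG. Ntf3 and Bambi were the other members of the list not called with EGCG.

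Activation markers rose as well. Of 24 listed genes of activated stellate cells and myofibroblasts 21 were tested, and 19 rose and 0 fell with age (median 1.59). With EGCG 17 fell and 0 rose (median -1.17). The shares over all tested genes were 33.4% called higher with age and 31.5% called lower with EGCG. Col3a1, a fibrillar collagen, rose from 6.15 ± 0.44 to 28.1 ± 0.81 CPM and stood at 12.6 ± 1.0 with EGCG. Col6a3 went from 2.80 ± 0.52 to 13.9 ± 0.62 and 4.46 ± 0.93 CPM, the filament gene Vim from 11.5 ± 1.4 to 29.4 ± 0.89 and 15.3 ± 0.087 CPM, and Tgfb1, the main fibrogenic cytokine, from 4.31 ± 0.52 to 13.5 ± 1.0 and 4.96 ± 0.46 CPM. Acta2, the smooth muscle actin that defines the myofibroblast, rose only from 3.48 ± 0.66 to 4.82 ± 0.89 CPM (0.47, adjusted p = 0.018), and its value with EGCG was -0.24 (adjusted p = 0.23). Timp1, an inhibitor of matrix metalloproteinases, had 28 counts over all 9 libraries and was not tested. Treated libraries were higher than young ones for 8 of the 21 genes and lower for 1, Ccn2, and the higher count was 13 with upper-quartile factors and 14 on log2(FPKM + 0.1). A count of 8 of 21 lies near the 30.8% of all tested genes called higher.

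Quiescence and activation genes were set side by side as mean log2 CPM (with 0.5 added) in each library, without a test. The mean of Lrat, Reln, Ecm1, Hgf, Hand2 and Rgs5 was 3.22 to 3.26 in young, 4.70 to 4.77 in aged and 3.63 to 3.66 in treated libraries. That of the 21 activation genes was 1.55 to 1.65, 2.88 to 2.90 and 1.87 to 1.91. The other 19 quiescence genes stood at 1.86 to 1.96, 3.11 to 3.18 and 2.26 to 2.30. All 3 sets were highest in the aged libraries and lay between, nearer to young, in the treated ones, so that neither class went up as the other went down.

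**Figure D4:**
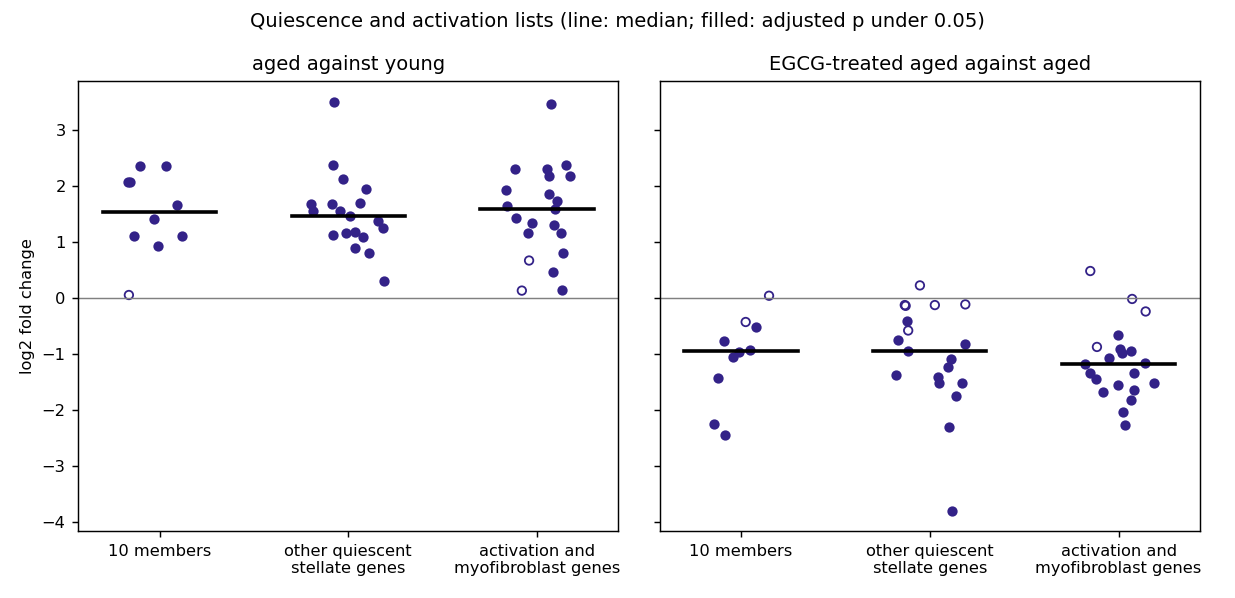
Log2 fold changes (vertical axis) of the tested genes of 3 lists, with age (left panel) and with EGCG (right panel); each point is a gene, filled where adjusted p was under 0.05, and lines are medians. The medians are 1.54, 1.46 and 1.59 with age and -0.94, -0.94 and -1.17 with EGCG.

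The partners of the member proteins moved less uniformly. Of 14 listed ligands, receptors, activators and channel partners 12 were tested, and 5 rose and 1 fell with age (9 rose with upper-quartile factors and on FPKM scales). With EGCG 1 rose and 3 fell. The main counts, 5 higher with age and 3 lower with EGCG, lie near the 33.4% and 31.5% called so over all tested genes. The count of 9 lies above that share and depends on the scaling. With upper-quartile factors, 5061 of all 12747 tested genes were called higher with age, against 4261 in the main fit. Among the ligands of the PDGF receptors, Pdgfb rose with age from 0.289 ± 0.029 to 1.54 ± 0.30 CPM, and stood at 1.04 ± 0.10 with EGCG (log2 change -0.57, adjusted p = 0.16). Pdgfc rose from 2.61 ± 0.58 to 5.57 ± 0.21 CPM and stood at 6.16 ± 1.1 with EGCG, still 1.24 above young (adjusted p = 4.8e-08). Pdgfd rose from 0.734 ± 0.058 to 1.73 ± 0.35 and fell to 0.977 ± 0.030 CPM. Pdgfa, at 3.13 ± 0.27, 3.99 ± 0.61 and 4.31 ± 0.66 CPM, was not called with age or with EGCG. Its treated libraries were called higher than young ones, by 0.46 (adjusted p = 0.027). The receptor genes Pdgfra and Pdgfrb fell with EGCG, whereas the values of Pdgfa and Pdgfc were 0.11 and 0.15 and did not pass.

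Met, the gene of the HGF receptor, fell with age, where Hgf rose, and fell with EGCG, as Hgf did. It went from 104 ± 1.4 to 89.4 ± 3.0 CPM with age (-0.22, adjusted p = 6.6e-06) and to 70.4 ± 3.6 with EGCG (-0.35, adjusted p = 1.0e-09). Hgfac and Hpn, genes of proteases that activate pro-HGF, changed by 0.06 and -0.04 with age and by -0.03 and -0.01 with EGCG, which did not pass. Spint2, an inhibitor of those proteases, stood at 71.8 ± 2.7 and 72.5 ± 2.2 CPM in young and aged libraries and rose to 84.3 ± 1.5 with EGCG. Spint1 and St14 stayed under 1 CPM by group mean and were not called.

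Vldlr, one of the reelin receptors, rose with age from 0.825 ± 0.20 to 2.12 ± 0.22 CPM and stood at 2.46 ± 0.28 with EGCG (0.22, adjusted p = 0.47), unlike Reln, which fell. Lrp8, the other receptor, and Dab1, their adaptor, had 32 and 42 counts over the 9 libraries and were not tested. Kcnj8 encodes the pore subunit that pairs with the Abcc9 product. It went from 1.57 ± 0.032 to 5.28 ± 0.98 CPM with age (1.74, adjusted p = 6.5e-09) and to 1.55 ± 0.45 with EGCG (-1.76, adjusted p = 5.0e-09). Treated and young libraries differed by -0.02 in Kcnj8 and by 0.66 in Abcc9.

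**Figure D5:**
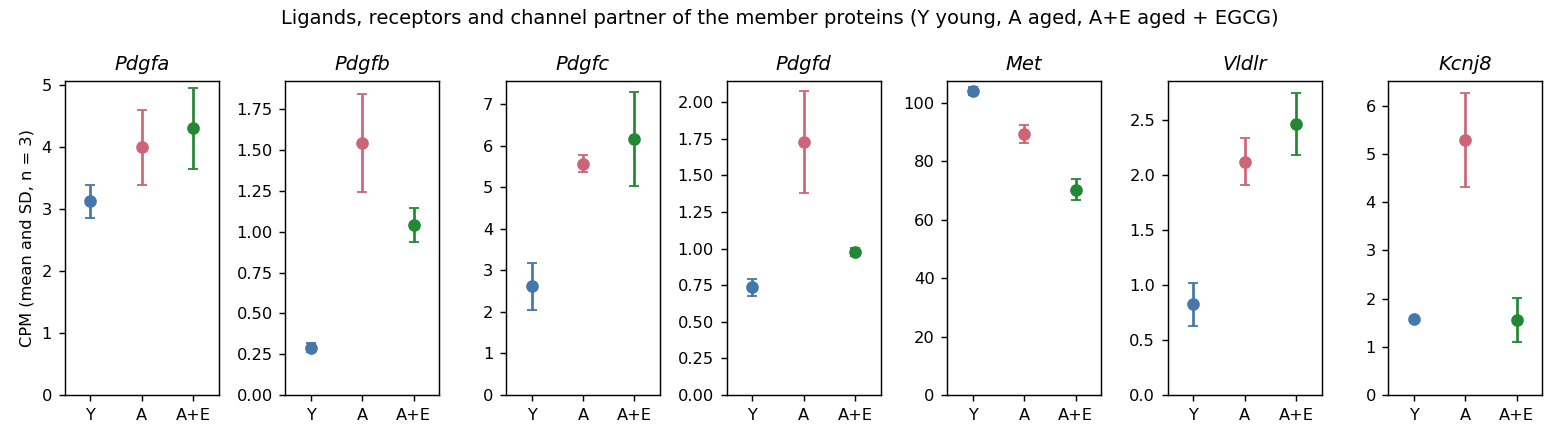
Levels (CPM, axis from 0; mean and SD of 3 libraries) of 4 PDGF ligands, the HGF receptor Met, the reelin receptor Vldlr and the channel subunit Kcnj8 in young (Y), aged (A) and EGCG-treated aged (A+E) libraries. Kcnj8 rises to 5.28 CPM in the aged group and is at 1.55 in the treated one, while Pdgfc and Vldlr stand as high with EGCG as without.

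Markers of other cells moved with the members. The summed level of 10 Kupffer cell and macrophage genes was 112 to 114 CPM in young, 604 to 616 in aged and 235 to 242 in treated libraries, with 10 of 10 higher with age and 10 of 10 lower with EGCG. For 10 genes of sinusoidal endothelium it was 126 to 131, 281 to 297 and 101 to 111 CPM, with 9 of 10 higher with age and 10 of 10 lower with EGCG. In treated against young libraries 0 of these endothelial genes were higher and 7 lower (4 to 7 over the settings tried), whereas 6 stellate members were higher and 0 lower. The 8 lymphocyte genes summed to 0.454 to 1.08 CPM in young, 16.8 to 18.9 in aged and 9.16 to 10.8 in treated libraries, and 8 of 8 were higher with age and 8 of 8 higher in treated than in young libraries. With EGCG 1 of the 8 rose (Cd79a) and 1 fell (median 0.23): Jchain, of antibody-secreting cells, went from 13.2 ± 1.8 to 4.48 ± 0.23 CPM, and no other gene of the list was above 2 CPM by group mean. The 10 hepatocyte genes had a median of -0.23 with age and of 0.15 with EGCG, and 10 were called lower with age (as few as 3 under other settings). Over all tested genes, 33.4% were called higher and 36.1% lower with age. The shares were 31.8% higher and 31.5% lower with EGCG, and 30.8% higher and 32.1% lower in treated against young libraries. The part of these cells in the changes of the 10 members, and of listed activation genes such as Vim and Tgfb1, was not tested.

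Mesenchymal cells that share genes with stellate cells were looked at separately. The 15 markers of portal fibroblasts and mesothelium summed to 8.23 to 9.92 CPM in young, 17.5 to 19.2 in aged and 11.8 to 12.2 in treated libraries, and 6 of 10 tested rose with age, against 33.4% of all tested genes. Entpd2, an ectonucleotidase of portal fibroblasts, rose from 1.30 ± 0.10 to 4.48 ± 0.097 CPM, and Gli1 had 12 counts in all. The 11 markers of smooth muscle and pericytes summed to 8.96 to 12.8, 21.98 to 25.8 and 11.3 to 13.03 CPM, and 5 of 7 tested rose with age. The pericyte genes Cspg4 and Higd1b had 12 and 5 counts over all 9 libraries and the smooth muscle regulator Myocd had 9, while other markers of the list were measured and rose with age: Smtn from 2.70 ± 0.77 to 7.56 ± 0.68 CPM, Mcam from 2.64 ± 0.93 to 4.83 ± 0.14, Notch3 from 0.798 ± 0.24 to 1.97 ± 0.25, Myh11 from 2.29 ± 0.26 to 3.51 ± 0.52 and Kcnj8 as given above. Cnn1 and Lmod1, also tested, did not pass with age (-0.08, adjusted p = 0.92, and -0.27, adjusted p = 0.69). They reached at most 0.475 and 0.577 CPM in any library. With EGCG, Smtn, Mcam, Notch3 and Kcnj8 fell. The part of these cells in the changes of Rgs5, Abcc9, Pdgfrb and Des was not tested.

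Genes whose log2 CPM ran most closely with a member over the 9 libraries were listed among 11095 other genes. For Reln these were P4ha1, a prolyl hydroxylase of collagen, at 8.28, 49.2 and 8.84 CPM in young, aged and treated libraries (Pearson r = 0.999, n = 9), then Wdtc1 and Plek. For Lrat they were Jak2 (r = 0.997), Clec2h and Scarf2, and for Abcc9 Jun (r = 0.997), Actg1 and Cybb. Among the genes closest to Hgf were Amotl1 and Btg2 (both r = 0.991). Rgs5 ran most closely with Nckap1l, Basp1 and C1qc (r = 0.995 to 0.994). The closest genes to Hand2 reached r = 0.882. Among the 9 other members, pairs correlated with r between 0.712 and 0.985, and pairs with Hand2 between 0.005 and 0.395. These coefficients all run over the same 9 libraries in 3 groups and are descriptions.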

How the data were processed

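RNA of 9 libraries labelled as mouse retina was purified with a Qiagen column kit and prepared with a SMARTER mRNA-seq kit, per the labels' protocols. The authors deposited whole-number counts per gene symbol together with FPKM for 16231 genes, as the file headers show. GRCm38 and mm10 are the builds in the submitters' processing notes. The sources used here name no aligner, counter or strand setting.

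These deposited counts were tested with edgeR 4.0.16 (R 4.3.3): TMM factors, filterByExpr with a minimum count of 10, quasi-likelihood fits of the 9 libraries by group, then Benjamini-Hochberg adjustment over 12747 genes with a threshold of 0.05. All adjusted p-values printed come from it. CPM are library-size-scaled counts with TMM factors, and FPKM served only for levels between genes and as an alternative. Intervals are the fold change plus or minus 1.96 SE. The steps were tested on simulated data in which few genes changed, so the scaling was not tested where most genes differ, as here. Library pairs of a group differed by more than sampling noise (chi-square 3.75 to 4.71 times its degrees of freedom).

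Members and lists were chosen with earlier results of these data known. Named by rule were all members, all their partners, up to 4 genes of each list with the smallest p with age, and the 3 genes most correlated with each member. Some genes that this rule names are not reported here. Other genes with values (near-zero and defining cell markers, transcription factors, Acta2, Timp1, Ccn2) were chosen after their values were seen. Promoters came from RefSeq (GRCm38.p6) and coordinates from GENCODE M21 on GRCm38. Alternatives were DESeq2 1.42.0, upper-quartile factors, no filter, fits of 2 groups, a replicate block, limma 3.58.1 on log2(FPKM + 1) and log2(FPKM + 0.1), and leaving out each library.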

Additional observations from a re-analysis of the deposited data

How the results depend on the processing

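Over the 17 alternatives, no member changed its call with age. With EGCG the call of Des changed in 4 of them, and between treated and young libraries those of Reln and Des changed in 5 each. With age, 9 members were called in each of them, with EGCG 8 or 9, and between treated and young libraries 5 to 7. Over all genes, the counts ran from 8396 to 9041, 7457 to 8177 and 7606 to 8369 in the 3 comparisons. The share of higher calls moved with the scaling: with age it was 48.1%, but 57.9% with upper-quartile factors and 66.8 to 67.8% on FPKM scales, and between treated and young libraries 49.0%, 65.6% and 66.9 to 67.2%. Across all genes the median went from -0.01 to 0.17 with age on log2(FPKM + 0.1), and from 0.02 to 0.18 between treated and young libraries with upper-quartile factors, so differences of that size depend on the scaling.

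Signs turned for members whose values had not passed. Between treated and young libraries Hgf was 0.078 with upper-quartile factors, 0.042 on log2(FPKM + 1) with or without the filter and 0.090 on log2(FPKM + 0.1). With 1 library left out it ran from -0.24 (without young replicate 1) to 0.16 (without young replicate 2), and was 0.085 without treated replicate 3. Pdgfra ran from -0.050 (without young replicate 2) to 0.16 (without young replicate 1). Hand2 with age ran from -0.094 (without aged replicate 3) to 0.17 (without aged replicate 2), and was -0.023 without young replicate 3. Hand2 with EGCG ran from -0.074 (without aged replicate 2) to 0.19 (without aged replicate 3), and was -0.028 without treated replicate 3. The cause was not tested.

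Deviations of same-numbered libraries of different groups correlated at -0.04 to 0.02, and those of others at -0.04 to 0.04. With 3 libraries per group, this gave no sign of pairing by replicate number but cannot exclude it. With the replicate block, 8749, 7957 and 7907 genes and 9, 8 and 6 members were called. Des, Hgf and Hand2 have the largest standard errors of the members.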
